A study of Homo sapiens with 6 samples.

Results

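The genes described here are 50 interferon-stimulated effector genes, the antiviral and immune genes that cells switch on after interferon, chosen by name among the 15977 genes of the deposited tables. RNA was read by poly(A) sequencing in HCT116, a human colorectal carcinoma cell line, in 6 libraries of 3 groups. KO2 and KO1 cells each carried 1 of 2 guide RNAs against MUC3A, a membrane-bound mucin of the gut epithelium, on the lentiCRISPR v2 vector, and the labels name both groups MUC3A knockout. WT cells are labelled wild type with negative control as treatment. Lentivirus was used at a multiplicity of infection of 10, puromycin (2 µg/mL) selection lasted 72 h, and the protocol describes a scrambled control virus, so whether the WT cells were infected is not settled by the labels. The KO2 guide matches chr7:100951917-100951936 on the plus strand and the KO1 guide chr7:100952090-100952109 on the minus strand, both in the coding part of MUC3A exon 2 (GRCh38, GENCODE 29). Whether a knockout line was 1 clone or a mixed population is not given in the labels.

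Interferons are secreted proteins that bind receptors on the cell surface and act through the JAK kinases and transcription factors of the STAT and IRF families. These factors bind short DNA elements, among them the interferon-stimulated response element (ISRE), in the promoters of a large set of genes. The proteins made from that set bind foreign RNA, block virus entry or release, attach the ubiquitin-like protein ISG15 or ADP-ribose to other proteins, and break down nucleotides. Many of them are also held at a low level in cells that have met no virus.

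Of the 50 genes, 46 had a row in the tables, and IFI27, IFI44L, RTP4 and PSMB8 were not analysed here. Another 6 had too few reads for the test (IFI16, MX2, GBP1, RSAD2, SAMD9L and XAF1), which left 40 tested. Each group has 1 library with the column prefix HCT and 1 with HCT116. What the prefix stands for is not explained by the labels, and libraries were compared within it. Wherever a pair of values is given for a group, the HCT library stands before the HCT116 library. Separate cultures are not stated for the pair of libraries in a group. With the prefix in the model, the p-values cover only the spread between these libraries that is left after it, and that spread may be technical. The common coefficient of variation that edgeR fitted was 0.118 with the prefix and 0.383 without it.

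Libraries held 13638724 to 17830282 reads on genes. MUC3A itself had 574 and 356 reads in KO2, 789 and 370 reads in KO1 and 810 and 319 reads in WT. It was not called in either knockout, and a count over the whole gene does not show small edits, so it does not check the labels. Mitochondrial transcripts made up 8.90% and 6.95% of reads in KO2, 5.94% and 4.20% in KO1 and 5.34% and 4.84% in WT. The epithelial genes EPCAM, CDH1, KRT8, KRT18, KRT19 and CDX2 were read in every library, whereas CDX1, VIL1, CEACAM5 and CEACAM6 had 3 reads or fewer in each. Of 14 leukocyte markers PTPRC had 0 or 1 read per library, and 3 had enough reads for the test. These were CD68 with 89 to 284 reads per library, CD8A with 3 to 30 and ITGAM with 13 to 17. Of 10 fibroblast markers 3 were tested, COL1A1 at 444 to 1268 reads, ACTA2 at 64 to 211 and PDGFRB at 2 to 16. Of 4 HEK293T lineage markers 1 was tested, PAX2, at 142 to 428 reads. Bulk RNA cannot tell more RNA per cell apart from more cells that express a gene.

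In KO2 cells 18 of the 40 tested genes rose against WT and 0 fell, where 2.15% of all 12679 tested genes rose and 2.47% fell (edgeR quasi-likelihood test with the prefix as a block, Benjamini-Hochberg adjusted p under 0.05). The rise was over 1 log2 unit in 13 of them, against 1.05% of all genes. An unadjusted edgeR p under 0.05 was reached by 29 of the 40, against 19.4% of all genes. The rise of the called genes ran from 0.63 log2 units for ISG15 to 3.34 for PARP10, which is 10.1-fold. The IFIT RNA binders, the IFI proteins, the ADP-ribosylation enzymes and SAMD9 held most of the called genes, while the ISG15-conjugating enzymes, the GTPases and most nucleotide enzymes held few. In KO1 cells 0 of the 40 rose and 0 fell against WT by edgeR, and 0 were called by DESeq2 and by limma-voom, where edgeR called 1.03% of all genes. An unadjusted edgeR p under 0.05 was reached in KO1 by 2 of the 40, IFI35 and PARP10, against 8.85% of all genes. Without the prefix in the edgeR model 0 of the 40, and 0 of all tested genes, were called in KO2. Of the 40, 12 had an unadjusted p under 0.05 there, and the share of all genes that did so was not counted.

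Over the 40 tested genes the log2 fold change of KO2 over WT had a median of 0.83, and 38 were positive, whereas the median over all tested genes was -0.00. In KO1 over WT the median was 0.02 and 21 were positive. Both comparisons use the same WT libraries. Within the HCT libraries the median log2 ratio of KO2 over WT was 0.73 and within the HCT116 libraries 0.64, and 35 genes were above 0 in both. Both KO2 libraries lay above both WT libraries for 25 of the 40, where 11.9% of all genes did so. Genes with the fewest reads passed the filter on low counts only if at least 2 libraries, of any group, had enough of them. IFI44, EPSTI1 and MX1 reached this only with the KO2 libraries, where they are high. With the KO1 and WT libraries alone 37 genes were tested. So IFI44, EPSTI1 and MX1 stand among the 40 through KO2, and these counts cover the 40 tested and not the full 50.

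**Figure D1:**
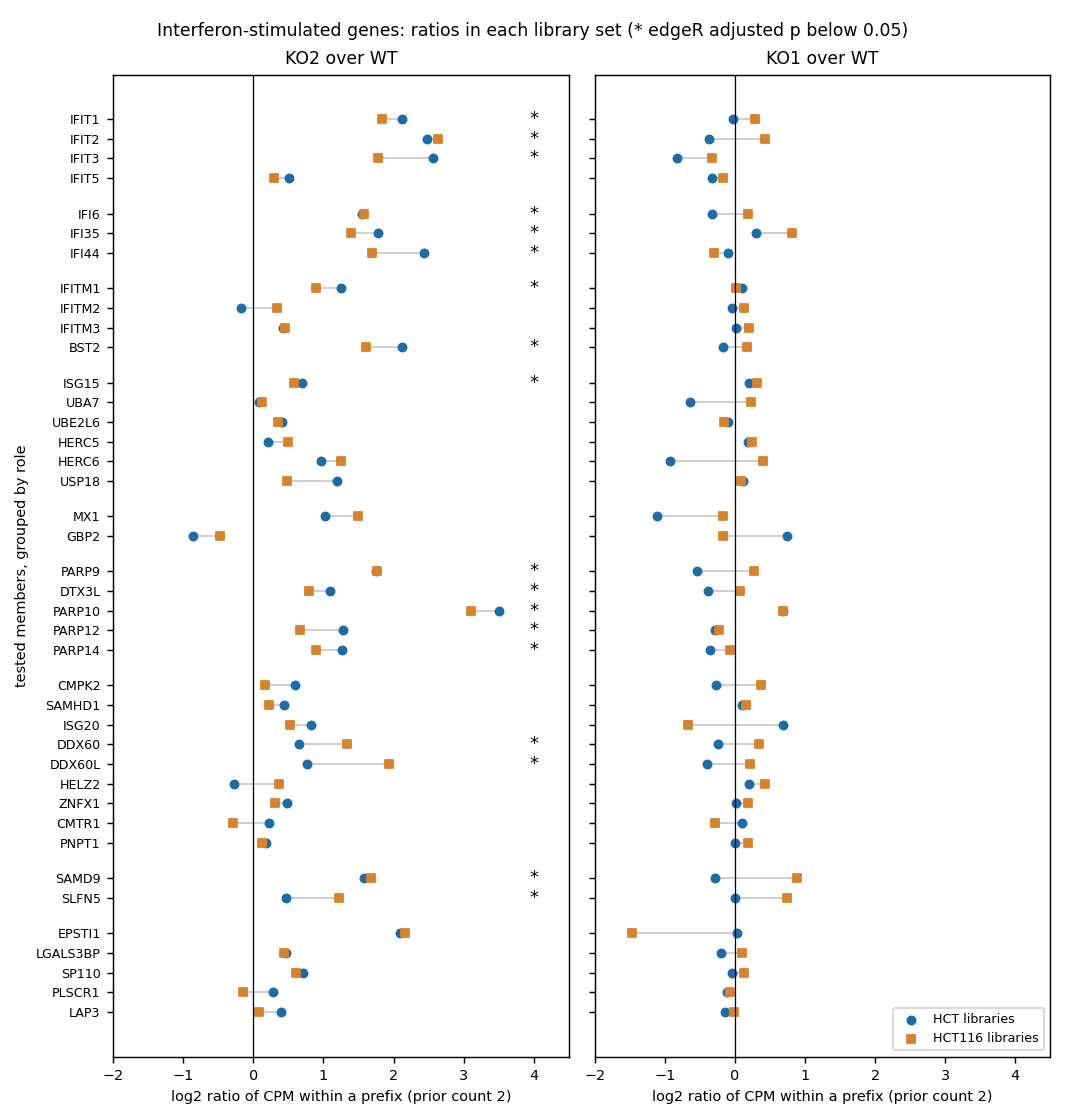
Log2 ratio of normalised read counts (CPM) within each column prefix (x axis) for the 40 tested genes, grouped by role, with KO2 over WT on the left and KO1 over WT on the right. Circles are HCT and squares HCT116 libraries, and a star marks an edgeR adjusted p under 0.05; 18 genes carry a star in KO2 and 0 in KO1.

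**Figure D2:**
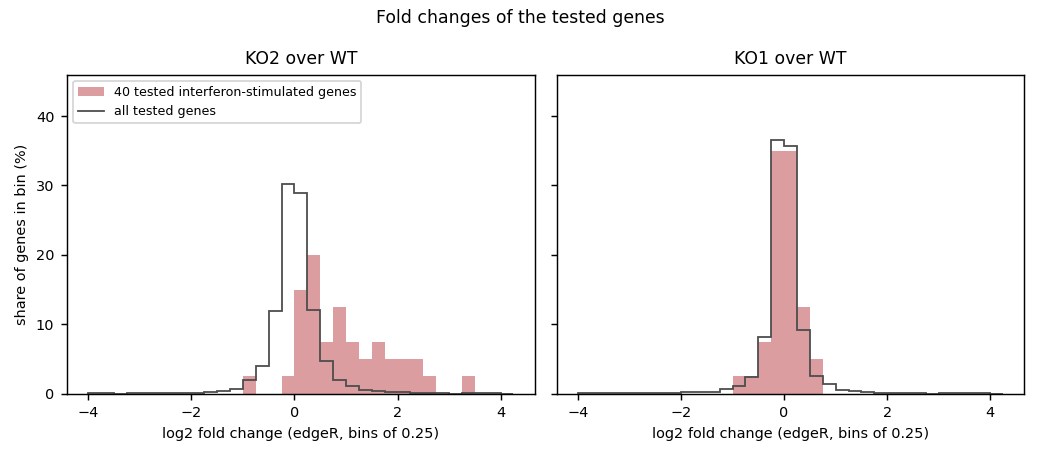
Share of genes (y axis, %) by log2 fold change (x axis, bins of 0.25; values past 4 in either direction stand in the outer bins) for the 40 tested interferon-stimulated genes (red) and all tested genes (line), KO2 over WT on the left and KO1 over WT on the right. The red bars lie right of 0 for 38 of the 40 genes in KO2 and on both sides of 0 in KO1, with 21 right of it.

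Interferon-activated factors bind promoter elements, so stretches from 8 of the 18 genes that rose are given as RefSeq has them. The windows searched ran from 250 bases before to 50 bases after the gene start. The motif was an ISRE-like core (GAAA, any 2 bases, GAAA), searched on both strands. In capitals are the cores, which appear as TTTC pairs where they lie on the other strand, and overlapping cores run together. Sequences read 5′ to 3′ in the direction of the gene.
IFIT1: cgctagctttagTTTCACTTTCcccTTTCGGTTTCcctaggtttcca
IFIT3: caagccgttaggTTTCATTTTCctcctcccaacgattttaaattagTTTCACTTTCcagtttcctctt
IFI6: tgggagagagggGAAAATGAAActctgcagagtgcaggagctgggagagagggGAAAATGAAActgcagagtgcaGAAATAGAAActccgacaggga
BST2: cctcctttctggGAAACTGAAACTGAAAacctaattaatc
ISG15: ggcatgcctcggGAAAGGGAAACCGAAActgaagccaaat
PARP14: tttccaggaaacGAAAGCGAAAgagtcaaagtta
DDX60L: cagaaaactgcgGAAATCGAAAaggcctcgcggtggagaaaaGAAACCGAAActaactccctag
SAMD9: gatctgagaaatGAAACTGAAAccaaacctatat
On GRCh38.p14 these lie at chr10:89392495-89392541 (plus) for IFIT1, chr10:89327829-89327896 (plus) for IFIT3, chr1:27672264-27672360 (minus) for IFI6 and chr19:17405733-17405772 (minus) for BST2. ISG15 was read at chr1:1013372-1013411 (plus), PARP14 at chr3:122680798-122680831 (plus), DDX60L at chr4:168480521-168480584 (minus) and SAMD9 at chr7:93118094-93118127 (minus). Only cores lying wholly before the gene start were chosen. All 8 stretches therefore end upstream of it, from 8 bases before it in PARP14 to 115 bases before it in SAMD9. The core of DTX3L, which also rose, begins 6 bases before the start, and its stretch is not given. IFI6 holds 3 cores, and PARP14 and SAMD9 hold 1 each.

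RefSeq windows were found for 41 of the 50 genes. IFIT2, IFITM2, UBA7, USP18, MX2, GBP2, PARP10, ZNFX1 and SLFN5 had none in the table used. The ISRE-like core stood in at least 1 window of 29 of the 41 genes (70.7%), against 1195 of 27305 genes with a window (4.4%) and 369 of 9984 tested genes (3.7%). Of the genes that rose in KO2 cells 14 of 15 with a window held it, IFI35 being the exception, and 8 of the 15 held 2 or more. Of the tested genes not called in KO2, 9 of 17 held it and 3 of the 17 held 2 or more. IFIT5 and HERC5, with 3 cores each, were among these 17, whereas UBE2L6, SAMHD1, HELZ2, PNPT1, CMTR1, CMPK2, SP110 and HERC6 had none. Of 172 other genes that rose in KO2, 15 held the core (8.7%). A GAS-like motif (TTC, any 3 bases, GAA), which can overlap the core, stood in 12 of the 41 genes (29.3%) and in 9.4% of all genes. These letters describe the windows and do not show binding in HCT116 cells.

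**Figure D3:**
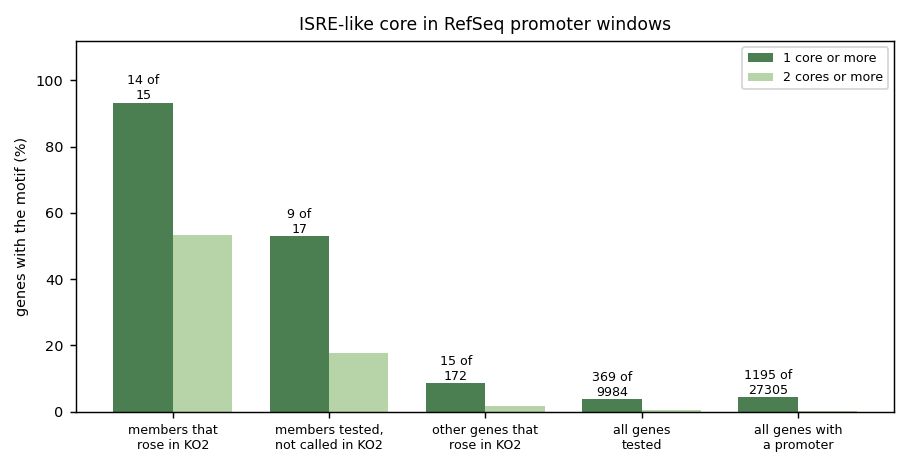
Share of genes (y axis, %) whose RefSeq promoter window holds 1 or more (dark) and 2 or more (light) ISRE-like cores, with the number of genes above each dark bar. The bars stand at 14 of 15 for the genes that rose in KO2, 9 of 17 for the tested genes not called and 1195 of 27305 for all genes with a window.

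The IFIT proteins bind foreign RNA, and 3 of the 4 tested rose in KO2 cells. Levels are given as CPM, which are read counts scaled to library size after TMM normalisation and not divided by gene length. IFIT1, which binds the cap of RNA that lacks host methylation, stood at 42.6 and 26.7 CPM in KO2, 9.44 and 9.04 CPM in KO1 and 9.69 and 7.39 CPM in WT. Both KO2 libraries lay above the 4 others, and the log2 fold change over WT was 2.00 ± 0.20 (SE, edgeR adjusted p = 0.000296). IFIT2, a partner of IFIT1 and IFIT3, had 11.5 and 10.4 CPM in KO2, 1.47 and 2.16 CPM in KO1 and 1.95 and 1.57 CPM in WT. Both KO2 libraries lay above the rest, with a log2 change over WT of 2.63 ± 0.31 (edgeR adjusted p = 0.000933). IFIT3, which stabilises IFIT1, had 226 and 164 reads in KO2, 15 and 33 reads in KO1 and 29 and 41 reads in WT. Its log2 difference over WT was 2.24 ± 0.34 (edgeR adjusted p = 0.00371), again with both KO2 libraries on top. IFIT5 was the member of the family that was not called over WT, at 39.1 and 25.8 CPM in KO2, 21.9 and 18.7 CPM in KO1 and 27.5 and 21.0 CPM in WT. Its KO2 and WT libraries overlapped (log2 0.41, edgeR adjusted p = 0.184), and it rose over KO1 by 0.66 (edgeR adjusted p = 0.0266). All 4 genes overlap LIPA, a tested gene, in the RefSeq annotation, and the sources used here do not say whether reads were counted by strand.

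All 3 tested IFI genes rose. IFI6, a mitochondrial and endoplasmic reticulum protein that limits cell death and virus replication, had 85.5 and 69.7 CPM in KO2, 23.3 and 26.4 CPM in KO1 and 29.2 and 23.2 CPM in WT. Both KO2 libraries lay far above the KO1 and WT libraries, which overlapped, and the log2 change over WT was 1.57 ± 0.16 (edgeR adjusted p = 0.000395). IFI35, which forms a complex with the transcription regulator NMI, had 17.1 and 39.4 CPM in KO2, 6.03 and 26.3 CPM in KO1 and 4.88 and 14.9 CPM in WT. Here the HCT116 library was the higher of every group, and the rise over WT of 1.61 ± 0.23 (edgeR adjusted p = 0.00264) left KO2 just above WT, while KO2 and KO1 overlapped. KO1 was above WT in both prefixes for IFI35, with a log2 difference of 0.61 that was not called (edgeR adjusted p = 0.406). IFI44, a cytoplasmic protein that limits virus growth, was rare, with 72 and 19 reads in KO2, 8 and 3 reads in KO1 and 9 and 4 reads in WT. The log2 change was 2.45 ± 0.52 (edgeR adjusted p = 0.0237), and with so few reads the SE may understate counting error. IFI16, a DNA sensor, had 2 reads in KO2 and 0 in WT.

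Among the membrane proteins that block virus entry or release, BST2 and IFITM1 rose. BST2 (tetherin), which holds budding virions on the cell surface, had 14.6 and 9.81 CPM in KO2, 2.88 and 3.55 CPM in KO1 and 3.25 and 3.15 CPM in WT. Its KO1 and WT libraries lay together and both KO2 libraries above them, with a log2 change over WT of 1.93 ± 0.29 (edgeR adjusted p = 0.00362). IFITM1 stood at 10.7 and 5.25 CPM in KO2, 4.76 and 2.78 CPM in KO1 and 4.42 and 2.75 CPM in WT, with KO2 on top and a log2 change of 1.13 ± 0.27 over WT (edgeR adjusted p = 0.0401). IFITM3, which acts in endosomes, had 350 and 454 CPM in KO2, 264 and 382 CPM in KO1 and 262 and 333 CPM in WT. Its KO2 libraries were above both of WT by a log2 difference of 0.43 ± 0.12, which missed the threshold (edgeR adjusted p = 0.0704). IFITM2 had 106 and 135 CPM in KO2, 116 and 117 CPM in KO1 and 120 and 106 CPM in WT, with overlap throughout. The 3 IFITM genes are related neighbours on chromosome 11, so reads may be split among them and their separate values are uncertain.

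ISG15 is a ubiquitin-like protein joined to its targets by UBA7, UBE2L6 and HERC5 and removed by USP18. Of the 6 tested genes of this system ISG15 alone rose over WT. It had 153 and 268 CPM in KO2, 109 and 224 CPM in KO1 and 95.0 and 180 CPM in WT. Pooled groups overlapped, since every HCT116 library was above its HCT partner, and within each prefix KO2 was the highest of the 3. The log2 change over WT was 0.63 ± 0.12 (edgeR adjusted p = 0.0130), and over KO1 it was 0.38 (edgeR adjusted p = 0.0745). HERC6, a relative of HERC5, had 21.5 and 13.1 CPM in KO2, 5.69 and 7.19 CPM in KO1 and 10.9 and 5.43 CPM in WT. KO2 lay above all other libraries, with a log2 difference of 1.09 ± 0.28 over WT (edgeR adjusted p = 0.0527) and a rise of 1.37 ± 0.29 over KO1 (edgeR adjusted p = 0.0122). UBE2L6, the conjugating enzyme, rose over KO1 only just past the threshold, at 37.5 and 40.2 CPM in KO2, 26.5 and 28.2 CPM in KO1 and 28.4 and 31.5 CPM in WT (log2 0.51, edgeR adjusted p = 0.0482). USP18, which also damps the type I interferon receptor, had 9.21 and 9.67 CPM in KO2, 4.29 and 7.34 CPM in KO1 and 3.97 and 6.92 CPM in WT. Its KO2 libraries were highest, with a log2 difference of 0.85 ± 0.27 that was not called (edgeR adjusted p = 0.105). UBA7, the activating enzyme, and HERC5, the main ligase, had log2 differences over WT of 0.10 and 0.35 and were not called.

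Neither of the tested GTPases passed the edgeR threshold over WT. MX1, which traps viral nucleocapsids, had 48 and 29 reads in KO2, 7 and 7 in KO1 and 18 and 8 in WT. Both KO2 libraries were on top, and the log2 difference was 1.32 ± 0.47 over WT (edgeR adjusted p = 0.149) and 2.15 ± 0.52 over KO1, where it rose (edgeR adjusted p = 0.0247). GBP2, a guanylate-binding protein known chiefly as a target of interferon gamma, was the member with the most negative value. It had 18 and 6 reads in KO2, 47 and 7 reads in KO1 and 28 and 8 reads in WT, with overlap and a log2 difference over WT of -0.84 ± 0.56 (edgeR adjusted p = 0.458). MX2 and GBP1 had 5 and 8 reads in KO2, 0 and 3 in KO1 and 2 and 0 in WT, summed over libraries.

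Among the enzymes that add or guide ADP-ribose every tested gene rose, 5 of 5 over WT and 5 of 5 over KO1. PARP10, a mono-ADP-ribosyltransferase, changed most of all 40 genes. It had 25.0 and 44.3 CPM in KO2, 3.42 and 8.19 CPM in KO1 and 2.08 and 5.03 CPM in WT. Both KO2 libraries were above all KO1 and WT libraries, and the log2 change was 3.34 ± 0.22 over WT (edgeR adjusted p = 1.83e-05) and 2.64 ± 0.21 over KO1 (edgeR adjusted p = 2.53e-05). KO1 was above WT within each prefix as well, by 0.70 on the log2 scale, and this was not called (edgeR adjusted p = 0.313). PARP10 overlaps GRINA, so reads of the pair cannot be told apart if counting ignored strand. PARP9, which binds ADP-ribose and works with the ubiquitin ligase DTX3L, had 47.2 and 30.3 CPM in KO2, 9.51 and 10.7 CPM in KO1 and 14.0 and 8.81 CPM in WT. DTX3L had 48.1 and 30.3 CPM in KO2, 17.1 and 18.2 CPM in KO1 and 22.4 and 17.4 CPM in WT. Neither overlapped between KO2 and the rest, and the log2 changes over WT were 1.76 ± 0.21 for PARP9 (edgeR adjusted p = 0.00103) and 0.96 ± 0.19 for DTX3L (edgeR adjusted p = 0.0162). The genes lie head to head on chromosome 3 and overlap, so some reads may be shared. PARP14, another mono-ADP-ribosyltransferase, had 46.3 and 34.9 CPM in KO2, 14.9 and 17.9 CPM in KO1 and 19.2 and 18.8 CPM in WT (log2 1.09 ± 0.18 over WT, edgeR adjusted p = 0.00669). PARP12, a zinc-finger member of the same family, had 47.7 and 47.5 CPM in KO2, 16.1 and 25.4 CPM in KO1 and 19.6 and 29.8 CPM in WT (log2 0.99 ± 0.18 over WT, edgeR adjusted p = 0.0113). In both genes the KO2 libraries were the highest of the 6.

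**Figure D4:**
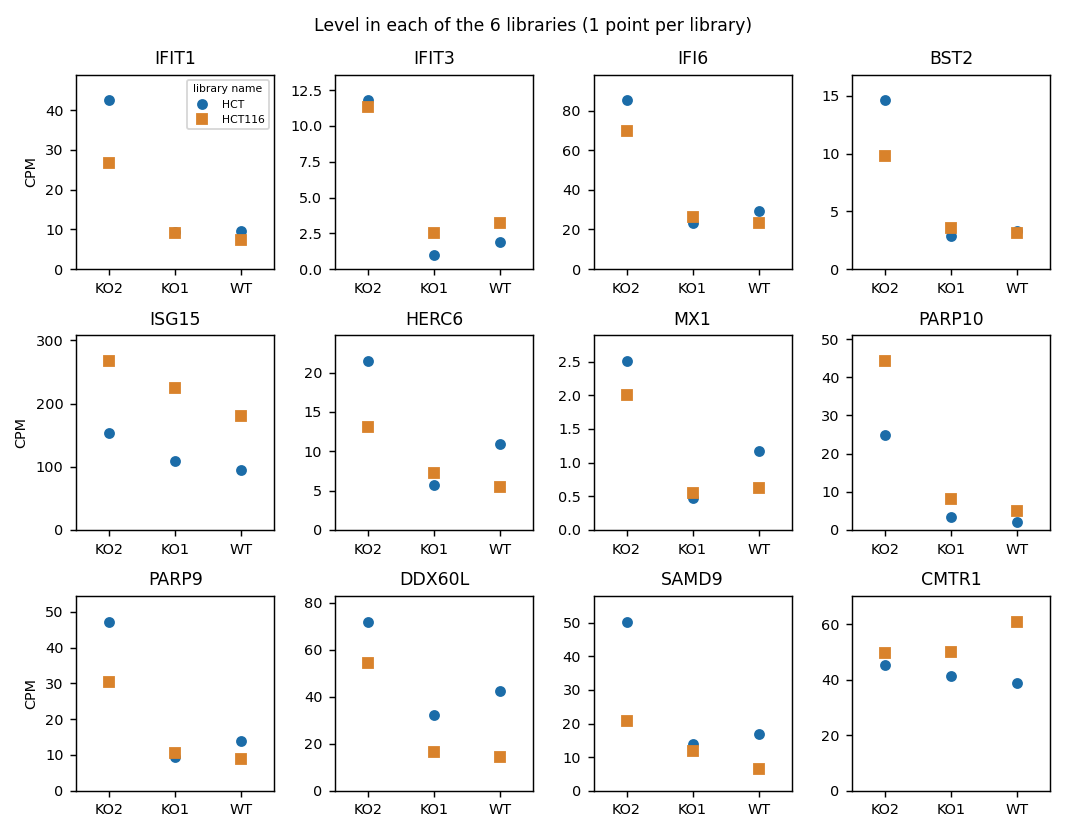
Normalised read counts (CPM, y axis, each panel from 0) of 12 genes in the KO2, KO1 and WT libraries, 1 point per library, circles for HCT and squares for HCT116. The KO2 points lie on top for IFIT1, IFIT3, IFI6, BST2 and PARP10, separate by prefix for ISG15, and mix with the others for CMTR1.

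Of 9 tested enzymes acting on nucleotides and RNA, 2 rose over WT, both of them DDX60-type helicases, which act in antiviral RNA responses. DDX60L had 71.9 and 54.5 CPM in KO2, 32.1 and 16.5 CPM in KO1 and 42.3 and 14.2 CPM in WT. Its KO2 libraries were on top, but the log2 ratio over WT was 0.76 in HCT and 1.93 in HCT116 libraries, the 1 called gene in which the prefixes differed by over 1 log2 unit. The fitted change was 1.31 ± 0.23 (edgeR adjusted p = 0.00799). DDX60 had 16.7 and 10.4 CPM in KO2, 8.98 and 5.10 CPM in KO1 and 10.6 and 4.01 CPM in WT, with the HCT116 library of KO2 just under the HCT library of WT. It rose by 0.96 ± 0.24 over WT (edgeR adjusted p = 0.0451). ZNFX1, a helicase-type sensor of viral RNA, had 125 and 96.7 CPM in KO2, 90.6 and 88.3 CPM in KO1 and 89.9 and 78.1 CPM in WT (log2 0.40, edgeR adjusted p = 0.113). SAMHD1, which breaks down deoxynucleotides, had 68.6 and 45.4 CPM in KO2, 54.3 and 43.6 CPM in KO1 and 50.9 and 39.0 CPM in WT (log2 0.33, edgeR adjusted p = 0.211). Neither passed the threshold. The nucleotide kinase CMPK2, the exonuclease ISG20, the helicase HELZ2, the cap methyltransferase CMTR1 and the RNA-degrading enzyme PNPT1 had log2 differences over WT from -0.04 (CMTR1) to 0.67 (ISG20), with 0 called. RSAD2 (viperin), which makes a chain-terminating nucleotide, had 17 reads in KO2, 1 in KO1 and 2 in WT.

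SAMD9, a restriction factor of poxviruses, had 50.3 and 20.7 CPM in KO2, 13.8 and 11.8 CPM in KO1 and 16.8 and 6.37 CPM in WT. Every other library lay under both of KO2, and it rose by 1.62 ± 0.25 over WT (edgeR adjusted p = 0.00430). Its neighbour SAMD9L had 18 reads in KO2, 0 in KO1 and 4 in WT. SLFN5, a member of the Schlafen family, had 67.5 and 31.3 CPM in KO2, 48.5 and 22.4 CPM in KO1 and 48.7 and 13.4 CPM in WT. Its groups overlapped, with the HCT library the higher in each, and within prefixes KO2 was on top, with a change of 0.80 ± 0.19 over WT (edgeR adjusted p = 0.0370).

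The 5 other tested effectors did not pass the edgeR threshold over WT. EPSTI1, a gene of epithelial and stromal cells induced by interferon, had 51 and 22 reads in KO2, 8 and 0 reads in KO1 and 8 and 3 reads in WT. KO2 lay above the rest, and the log2 difference was 2.48 ± 0.66 over WT (edgeR adjusted p = 0.0596) and 2.97 ± 0.70 over KO1, where it rose (edgeR adjusted p = 0.0214). LGALS3BP, a secreted galectin ligand, had 752 and 1017 CPM in KO2, 471 and 806 CPM in KO1 and 545 and 755 CPM in WT. It overlapped across prefixes and rose over KO1 by 0.50 ± 0.14 (edgeR adjusted p = 0.0402), with 0.45 over WT (edgeR adjusted p = 0.0931). SP110, a nuclear body protein, had 21.9 and 12.7 CPM in KO2, 12.9 and 9.12 CPM in KO1 and 13.4 and 8.34 CPM in WT (log2 0.66, edgeR adjusted p = 0.0800). LAP3, an aminopeptidase, and PLSCR1, a phospholipid scramblase, had log2 differences over WT of 0.24 and 0.08. XAF1, a partner of the apoptosis inhibitor XIAP, had 14 reads in KO2, 1 in KO1 and 0 in WT.

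KO2 was then set against KO1, which compares the libraries of the knockout groups. The guide cannot be told apart from any difference of line, infection or culture between those groups. Of the 40 genes 22 rose in KO2 and 0 fell, where 4.27% of all genes rose and 5.39% fell, and 17 rose by over 1 log2 unit against 1.95% of all genes. Of the 18 genes that rose over WT, 16 also rose over KO1, ISG15 and SLFN5 being the exceptions. Both comparisons use the same KO2 libraries, so this overlap is not independent support. The 6 called over KO1 and not over WT were IFIT5, UBE2L6, HERC6, MX1, EPSTI1 and LGALS3BP. Both KO2 libraries lay above both KO1 libraries in 24 genes, against 13.3% of all genes. Without the HCT library of KO1 the edgeR count was 11, and IFIT5, IFI35, IFI44, IFITM1, UBE2L6, HERC6, MX1, DTX3L, DDX60, SAMD9 and LGALS3BP were no longer called (edgeR adjusted p from 0.139 to 0.613). Without the HCT116 library of KO1 the call was lost by IFIT5, IFITM1, UBE2L6, DDX60, EPSTI1 and LGALS3BP (edgeR adjusted p from 0.0537 to 0.358), and without the HCT library of KO2 by IFI44 and IFITM1 (0.0980 and 0.130). UBE2L6 also lost it without either WT library (0.0604 and 0.0626). Without the prefix in the model edgeR called 0 of the 40 and 0 of all tested genes. Of the 40, 14 had an unadjusted p under 0.05 in that fit, where the share of all genes was not counted.

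Leaving out each of the 6 libraries in turn, 12 of the 18 genes that rose over WT passed the edgeR threshold every time, and the other 6 did not. Without the HCT116 library of WT the call was lost by SLFN5 (log2 0.48, edgeR adjusted p = 0.353), DDX60 (0.69, edgeR adjusted p = 0.386), IFITM1 (1.23, edgeR adjusted p = 0.121), ISG15 (0.64, edgeR adjusted p = 0.0728) and IFI44 (2.65, edgeR adjusted p = 0.0506). Without the HCT library of WT it was lost by PARP12 (0.84, edgeR adjusted p = 0.0626), ISG15 (0.63, edgeR adjusted p = 0.0633), IFI44 (2.08, edgeR adjusted p = 0.335) and IFITM1 (0.99, edgeR adjusted p = 0.339). Without the HCT library of KO2 it was lost by IFI44 (2.12, edgeR adjusted p = 0.148) and IFITM1 (0.96, edgeR adjusted p = 0.105), and without the HCT library of KO1 by DDX60 (0.97, edgeR adjusted p = 0.0551) and IFITM1 (1.12, edgeR adjusted p = 0.0585). All of these fold changes kept their direction.

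The knockout groups differed in library features too. KO2 libraries had the highest totals and mitochondrial shares of their prefix, and their part in the result was not tested beyond 1 alternative: with mitochondrial transcripts left out, 17 of the 40 genes rose over WT. The 8 listed leukocyte markers summed to 8.21 and 14.2 CPM in KO2, 21.2 and 19.3 CPM in KO1 and 10.9 and 11.5 CPM in WT. The other 6 of the 14 markers were not listed, CD68 carried most of the sum, and edgeR called none of the 3 tested against WT in either knockout. In KO2 against KO1 CD68 fell, with 89 and 171 reads in KO2 and 284 and 227 reads in KO1 (log2 -1.25, edgeR adjusted p = 0.0248). Of the epithelial genes KRT8, KRT18, KRT19 and CDH1 also fell in that comparison, by log2 changes of -0.75, -0.78, -0.68 and -0.46 (edgeR adjusted p from 0.0109 to 0.0416), while EPCAM and CDX2 were not called. PAX2, of the HEK293T lineage list, rose in KO2 over KO1 (log2 0.70, edgeR adjusted p = 0.0362). The part of these genes in the difference between the knockout groups was not tested.

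Many of these genes differed between the HCT and HCT116 libraries, at shares near or below those of all genes. Of the 40, 8 were higher and 13 lower in the HCT116 libraries than in the HCT libraries (edgeR, adjusted p under 0.05), where 31.8% of all genes were higher and 32.1% lower. IFI35, PARP10 and ISG15 had the largest differences upward, at 1.61, 1.05 and 0.92 log2 units. GBP2, SLFN5 and IFI44 had the largest downward, at -1.80, -1.35 and -1.32. So PARP10 and IFI35, which rose in KO2, were high in HCT116 libraries, while SLFN5 and IFI44, which also rose, were high in HCT libraries. Of the 18 called genes 11 had the larger KO2-over-WT ratio in the HCT libraries.

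Split at the members' median level of 21.8 CPM, without correction for gene length, 11 of the 20 lower genes rose in KO2 with a median log2 difference of 1.46, and 7 of the 20 higher genes with a median of 0.40. The lower genes include IFI44, EPSTI1 and MX1, which passed the filter on low counts through KO2. Over all tested genes the shares that rose were 2.37% below that level and 2.01% above it.

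The genes lie on 17 chromosomes, and 23 of the 50 sit next to another of them. In the IFIT cluster the adjacent IFIT2 and IFIT3 rose by 2.63 and 2.24, while IFIT1 rose by 2.00 and IFIT5, next to it, had 0.41. HERC6 had 1.09 and HERC5, next to it, 0.35. IFITM1 rose by 1.13, with 0.08 for IFITM2 and 0.43 for IFITM3. DDX60 rose by 0.96 and DDX60L by 1.31, and PARP9 rose by 1.76 and DTX3L by 0.96. These are log2 differences of KO2 over WT, and the differences between neighbours were not tested.

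A further 81 genes of the interferon pathway were looked up in the tables, of which 40 were tested. In KO2 cells 15 rose and 1 fell over WT, where 2.15% of all tested genes rose and 2.47% fell. In KO1 cells 0 were called against WT by edgeR, where 1.03% of all genes were called. An unadjusted edgeR p under 0.05 was reached in KO1 by 2, against 8.85% of all genes, and DESeq2 called 1. KO2 over KO1 gave 12 higher and 1 lower, where 4.27% of all genes rose and 5.39% fell. Of 11 tested RNA and DNA sensors and adaptors 3 rose in KO2. DDX58 (RIG-I), a sensor of RNA ends, had 50.6 and 23.6 CPM in KO2, 12.5 and 11.0 CPM in KO1 and 16.4 and 10.8 CPM in WT. IFIH1 (MDA5), a sensor of long double-stranded RNA, had 28.0 and 13.4 CPM in KO2, 9.24 and 5.49 CPM in KO1 and 10.6 and 5.11 CPM in WT. Both KO2 libraries were above those of WT, and the log2 changes were 1.40 ± 0.21 for DDX58 (edgeR adjusted p = 0.00379) and 1.39 ± 0.20 for IFIH1 (edgeR adjusted p = 0.00326). TMEM173 (STING), the adaptor of DNA sensing, rose (log2 ratio 0.96 in HCT and 1.04 in HCT116 libraries, edgeR adjusted p = 0.00809), at 58.0 and 77.6 CPM in KO2, 34.3 and 70.2 CPM in KO1 and 29.9 and 37.7 CPM in WT. MAVS, TICAM1, TBK1 and the other tested adaptors were not called.

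Among the receptor, JAK, STAT and IRF genes and their inhibitors, SOCS1 and STAT2 rose over WT and SOCS3 fell. SOCS1, a feedback inhibitor of JAK kinases, had 15.6 and 24.8 CPM in KO2, 7.43 and 8.89 CPM in KO1 and 7.09 and 10.1 CPM in WT (log2 1.22 ± 0.20, edgeR adjusted p = 0.00631). STAT2, a transcription factor of interferon signalling, rose by 0.55 log2 units (edgeR adjusted p = 0.0434). SOCS3, an inhibitor known best in interleukin-6 signalling, fell to 27.4 and 27.1 CPM in KO2, against 71.9 and 41.7 CPM in KO1 and 66.4 and 41.1 CPM in WT. Its log2 change was -0.93 ± 0.19 (edgeR adjusted p = 0.0168). The receptor genes IFNAR1, IFNAR2, IFNGR1, IFNGR2 and IFNLR1 were not called.

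Of 21 interferon genes IFNE, an epithelial type I interferon, was the 1 tested. It had 79 and 49 reads in KO2, 9 and 3 reads in KO1 and 7 and 16 reads in WT, with KO2 on top, and rose by 2.17 ± 0.53 over WT (edgeR adjusted p = 0.0409). It passed the filter on low counts through the KO2 libraries. IFNB1 was not analysed here. IFNL1, IFNL2 and IFNL3 had 2 and 5, 3 and 7, and 3 and 4 reads in KO2, 0 in KO1 and 1 read each in WT, and as near-identical copies they are uncertain. Among OAS enzymes and other effectors of double-stranded RNA 5 of 7 rose in KO2. OAS1, which makes the activator of RNase L, had 9.15 and 6.42 CPM in KO2, 1.81 and 2.32 CPM in KO1 and 0.33 and 0.55 CPM in WT. The groups were apart in that order. It rose by 4.16 ± 0.44 over WT (edgeR adjusted p = 0.000454), and KO1 had a log2 difference of 2.24 ± 0.51 (edgeR adjusted p = 0.0709). OASL, a relative that aids RIG-I, rose by 2.06 ± 0.22 (edgeR adjusted p = 0.000485) and OAS3 by 1.09 ± 0.22 (edgeR adjusted p = 0.0173). Of 5 tested antigen-processing genes 3 rose: B2M, the light chain of HLA class I, by 0.66 ± 0.13 (edgeR adjusted p = 0.0144), NLRC5, the activator of that class, by 1.12 ± 0.19 (edgeR adjusted p = 0.00717) and ERAP1, a peptide trimmer, by 1.18 ± 0.26 (edgeR adjusted p = 0.0244). With 1 library left out, the edgeR call over WT was lost by B2M without the HCT116 library of WT (adjusted p = 0.182) and by SOCS3 without the HCT library of WT (0.0533). It was lost by IFNE without the HCT library of WT (log2 1.30, edgeR adjusted p = 0.395) or of KO2 (0.0518), and by STAT2 without either library of WT or of KO1 (0.0819 to 0.263). The chemokine CXCL10 had 9 reads over the KO2 libraries, 2 over KO1 and 0 over WT.

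**Figure D5:**
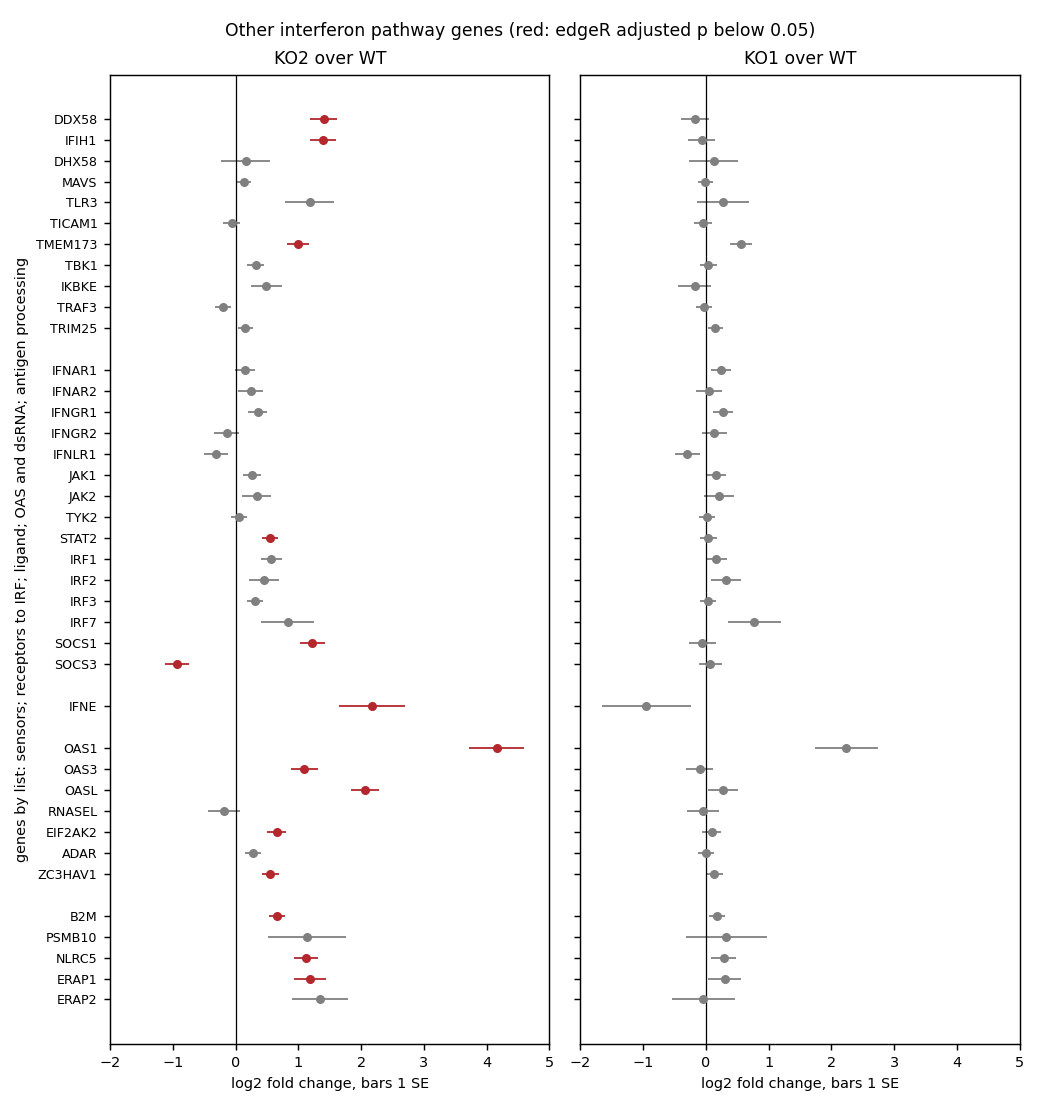
Log2 fold change (x axis, bars 1 SE) of 39 of the 40 other tested interferon pathway genes, with KO2 over WT on the left and KO1 over WT on the right. Red points have an edgeR adjusted p under 0.05, which holds for 15 of those plotted in KO2, SOCS3 to the left of 0 and OAS1 farthest to the right, and for 0 in KO1.

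The authors' filtered lists are labelled with a log2 fold change of 1 and a p-value of 0.05, which is not adjusted. For KO2 against WT, 13 of the 46 genes stood on the list of 247 genes. That table held the 15284 genes shared by both tables and 429 more. Of the 46, 2 genes, PARP10 and IFIT2, had an authors' adjusted p under 0.05, and the share of all genes that did so was not counted. In the authors' deposited table for KO1 against WT, with the 15284 shared genes and 264 more, 0 of 45 genes stood on the list of 97. The authors' deposited log2 fold change in KO2 was 3.24 for PARP10 and 2.59 for IFIT2.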

How the data were processed

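A NEBNext Ultra RNA kit was used on poly(A) RNA, per the labels' protocols. STAR, HTSeq 0.6.0, DESeq2 and hg18 appear, without roles, in the submitters' processing notes. The authors deposited whole read counts per gene symbol in 2 tables, per the file headers, beside log2 fold changes and p-values of their own comparisons with WT. Other deposited per-sample columns, 40 in all and FPKM among them, were not used, so levels were not compared between genes. WT values were identical in both tables, which share 15284 genes and were joined on symbol. The KO1 table alone holds 264 genes and the KO2 table alone 429, with 0 reads in WT. Columns carry no replicate number.

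Counts were tested with edgeR 4.0.16 in R 4.3.3: TMM scaling, a filterByExpr filter (minimum count 10, groups given), and a quasi-likelihood fit and test (glmQLFit, glmQLFTest) over the 6 libraries with the prefix as a replicate block (2 residual degrees of freedom), and Benjamini-Hochberg adjustment over 12679 genes at 0.05. The data, not the labels, give the pairing by prefix: deviations from group means correlated at 0.867 between KO1 and WT, 0.815 between KO2 and WT and 0.783 between KO2 and KO1 across genes. SE is the absolute log2 fold change over the square root of F. Within-prefix ratios use a prior count of 2. DESeq2 1.42.0 and limma-voom 3.58.1 were alternatives. At these depths 3 counts equal 0.168 to 0.220 CPM in a library before TMM scaling, for counting error only. The steps were tested on simulated counts. Libraries of the same group differed beyond sampling noise: chi-square per degree of freedom was 91.5 in KO2, 119 in KO1 and 142 in WT.

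Genes named with values are, within each role group, up to 4 with the smallest p, all called genes with a log2 change over 1 and any called lower, and up to 3 called genes of each companion list. STAT2, the other genes given with values and those of the library plot were added after their values were seen. The members and lists were chosen with earlier results of these data known. Promoters came from RefSeq (GRCh38.p14), matched by symbol. For the companion lists all alternatives were added after seeing the data. Results of some companion genes are not reported here.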

Additional observations from a re-analysis of the deposited data

How the results depend on the processing

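Without the prefix block edgeR called 0 of the 40 genes in KO2 against WT, 0 in KO2 against KO1 and 0 of the 40 companion genes in either, with 12, 14, 10 and 9 at an unadjusted p under 0.05. In those fits 0 of all tested genes were called in any comparison, and their share at that unadjusted p was not counted. Under the other alternatives that kept every library of both groups, 11 to 24 genes rose in KO2 against WT. The 24 were of 46 tested, with no filter on low counts. At an adjusted p of 0.01 the count was 11 for KO2 against WT and 13 for KO2 against KO1. The companion counts of 16 and 13 became 7 and 8. DESeq2 called 16, of which 15 were among the 18, and limma-voom 21, with all 18. Leaving out each library in turn gave 13 to 27 in KO2 against WT and 11 to 30 in KO2 against KO1, lowest without the HCT library of KO1. In KO1 against WT some of the 40 passed when 1 KO2 library was left out. More of all tested genes passed there too, and the cause was not tested. In both KO2 comparisons the count of called members was highest without the HCT116 library of KO2, and over KO1 not all of those had risen. More of all tested genes passed in that fit than in the main fit. Companion counts ranged over 0 to 2 in KO1 against WT, 11 to 21 in KO2 against WT and 5 to 22 in KO2 against KO1, with 5 without the HCT library of KO1 and 22 without the HCT116 library of KO2. With only the 4 libraries compared KO1 had 1 called gene and 2 companions, among 879 of all tested genes called, against 130 in the main fit. With no filter or with DESeq2 KO1 had 1 companion, among 312 and 205 called. Where a library was left out, the lone library of its group is assumed to vary like the others. No called fold change of a named gene changed sign. IFI44 and IFITM1 were called in 9 and 8 of 14 alternatives. With 2 libraries a group and rare genes under 3 counts, small differences were not detectable at this depth.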

Other observations

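Of the 18 genes that rose in KO2, 5 of the 15 with a promoter window held the GAS-like motif, against 5 of the 17 that were tested and not called.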
